A study of Capra hircus with 20 samples.

Results

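Transforming growth factor beta (TGF-beta) ligands, their receptors and the proteins that hold them latent in the matrix were followed in cultured goat cells from 2 fat depots, before and after induction of fat storage. The members were the rows of the deposited mRNA table whose gene symbol was TGFB1, TGFB2, TGFB3, INHBA, MSTN, TGFBR1, TGFBR2, TGFBR3, LTBP1 or LTBP2. All 10 symbols were found, among 20587 in the table, with 25 transcripts that were summed per gene. They comprised 5 ligands, 3 receptors and 2 latent-binding proteins. The cells came from 5 male Jianzhou Daer goats aged 7 days (Capra hircus), from longissimus dorsi muscle for the intramuscular cultures and from fat under the skin for the subcutaneous ones. They were released with type I collagenase, grown in DMEM/F12 with 10% fetal bovine serum and used at passage 3. Intramuscular preadipocytes (IMPA) and subcutaneous preadipocytes (SPA) were harvested at day 0 of induction. Intramuscular adipocytes (IMA) and subcutaneous adipocytes (SA) were harvested at day 3 of induction with oleic acid at 50 micromole per litre. Each of the 4 groups had 5 libraries of strand-specific RNA-seq. The labels number the replicates without naming the goat, so the p-values measure the spread between these samples.

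Ligands of the TGF-beta family are secreted as dimers. TGF-beta itself leaves the cell wrapped in its own propeptide, and a latent TGF-beta binding protein ties this complex to fibrillin fibres until integrins, proteases or thrombospondin release it. The freed ligand is bound by the type II receptor, with betaglycan as a co-receptor, and the type I receptor then phosphorylates SMAD2 and SMAD3. Activin A and myostatin use activin receptors and reach the same SMADs. In culture, TGF-beta and activin are known to hold back the conversion of preadipocytes into fat cells, and myostatin is known as a brake on muscle growth.

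The labels were first set against marker genes, since the levels below are averages over whole cultures. Values are in FPKM, fragments scaled to transcript length and to the mapped total of the library, summed over the transcripts of a gene. Of 12 skeletal muscle and myoblast markers in the table, all had a mean of 1 FPKM or more in IMPA and in IMA. Their summed level was 3524 ± 234 (SD, n = 5) in IMPA and 11686 ± 288 in IMA, led by MYLPF, a fast myosin light chain, and all 5 IMA libraries lay above all 5 IMPA libraries. In SPA and SA the same sum was 10.3 ± 6.83 and 8.47 ± 0.632, with 10 and 11 of the 12 genes under 1 FPKM, and SPA 1 stood highest at 22.5. Of 11 adipocyte markers listed, 10 were in the table, and FABP4 was not found under that symbol. Of the 10 found, 7 were under 1 FPKM in each of IMPA, IMA and SPA and 5 in SA. Adiponectin (ADIPOQ), perilipin 1 (PLIN1), leptin (LEP) and hormone-sensitive lipase (LIPE) were among them in every group. Of the 4 adipocyte markers that were tested, 1 rose and 1 fell in each depot. CD36, a fatty acid transporter, rose from 0.252 to 4.91 FPKM in the intramuscular cells and from 0.0679 to 0.934 in the subcutaneous cells. CEBPA, a transcription factor and the most abundant of these markers in IMPA, IMA and SPA, fell from 9.23 to 5.42 and from 5.05 to 3.91 FPKM (log2 changes -0.68 and -0.31, adjusted p = 3.71e-06 and 0.00749). CIDEC led this list in SA at 4.35 FPKM and was at 4.65 in SPA, 0.334 in IMPA and 0.318 in IMA. PPARG and LPL were too low on average to be tested. Their means went from 0.624 to 1.03 and from 0.549 to 1.34 FPKM in the subcutaneous cells. In the intramuscular cells they went from 0.475 to 0.364 and from 1.02 to 0.941. The cultures labelled intramuscular preadipocytes and adipocytes therefore carried a strong muscle programme. The 10 adipocyte markers in the table, which lack FABP4, were not at a high level in any group. The group names below are those of the labels.

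The 10 preadipocyte and stromal markers summed to 2475 ± 168 FPKM in IMPA, 2547 ± 132 in IMA, 10196 ± 104 in SPA and 7600 ± 148 in SA. Vimentin led this list in the intramuscular groups and decorin in the subcutaneous groups, while DLK1 was under 1 FPKM in all 4 groups. The 5 endothelial markers were under 1 FPKM throughout, and so were PTPRC and CSF1R of the leukocyte list, whose sum of 6.54 to 16.8 FPKM came mostly from CD14. The 5 smooth muscle and myofibroblast markers summed to 1467 and 2471 FPKM in IMPA and IMA, led by desmin (DES), which is also a skeletal muscle gene. DES went from 573 to 1743 FPKM and CNN1 from 12.3 to 15.1, while ACTA2 fell from 388 to 290 and TAGLN from 493 to 423. They summed to 262 FPKM in SPA and 304 in SA, led by transgelin. The 5 proliferation markers summed to 105 ± 7.30 FPKM in IMPA and 88.8 ± 6.26 in IMA. They rose from 47.6 ± 3.33 in SPA to 186 ± 10.8 in SA, and each of the 5 passed the test in that comparison. In bulk RNA, fewer cells of a type and less RNA per cell cannot be told apart.

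**Figure D1:**
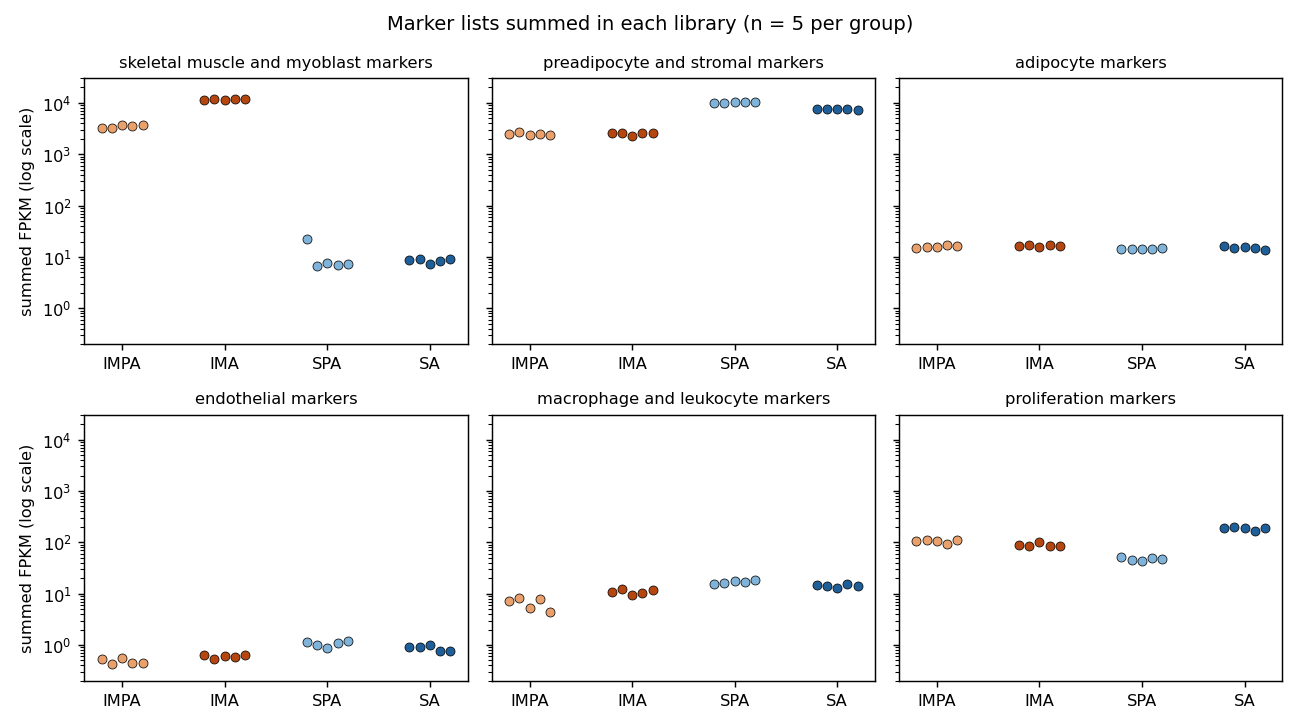
Summed FPKM of 6 marker lists in each of the 20 libraries, on a log axis, with 5 points per group (IMPA, IMA, SPA, SA). The muscle list lies at 3267 or more in every intramuscular library and at 22.5 or less in every subcutaneous library, the adipocyte list between 13.8 and 17.2 in all groups.

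Each comparison was tested gene by gene with limma on log2(FPKM + 1), with p-values adjusted over all genes tested, and a gene was called at an adjusted p under 0.05. Changes are differences of group means on that scale, which understates the change of genes near 1 FPKM. Genes entered the tests when their average across all 20 libraries reached 1 FPKM, which left 11432. They included 9 members, while MSTN was below that level. A member that is abundant in 1 depot passed this filter through that depot, so the counts are descriptions. In IMA against IMPA, 4 of 9 members were called, 2 higher and 2 lower, where 60.1% of all genes tested were called, 19.9% higher and 40.2% lower. In SA against SPA, 6 of 9 were called, 1 higher and 5 lower, against 52.1% of all genes, 26.1% higher and 26.0% lower. Rescaling every library to the same mRNA sum kept those 6 calls in number, but 2326 of 6377 genes called were then higher, compared with 2982 of 5958 as deposited. The stage changes of the 2 depots differed for 3 of 9 members, 2 of them higher in the intramuscular cells, where 55.3% of all genes passed, 20.7% higher and 34.6% lower. With 9 genes, the shares of members called lay below those of all genes for IMA against IMPA and for the difference between depots, and above them for SA against SPA.

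Depot differences were more frequent. Between the preadipocytes, IMPA against SPA, 8 of 9 members were called, 3 higher and 5 lower, where 75.1% of all genes were called, 42.3% higher and 32.9% lower. Between the induced cells, IMA against SA, 8 of 9 were called, 4 higher and 4 lower, against 72.4% of all genes, 29.0% higher and 43.4% lower. The 2 groups did not overlap for 7 of 9 members in each of these comparisons, where 63.4% and 58.6% of all genes did not overlap. For the stage comparisons, 3 of 9 members did not overlap in IMA against IMPA and 6 of 9 in SA against SPA, beside 43.5% and 38.8% of all genes. For the stage changes the median absolute difference was 0.19 and 0.33 for the members and 0.20 and 0.16 for all genes.

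**Figure D2:**
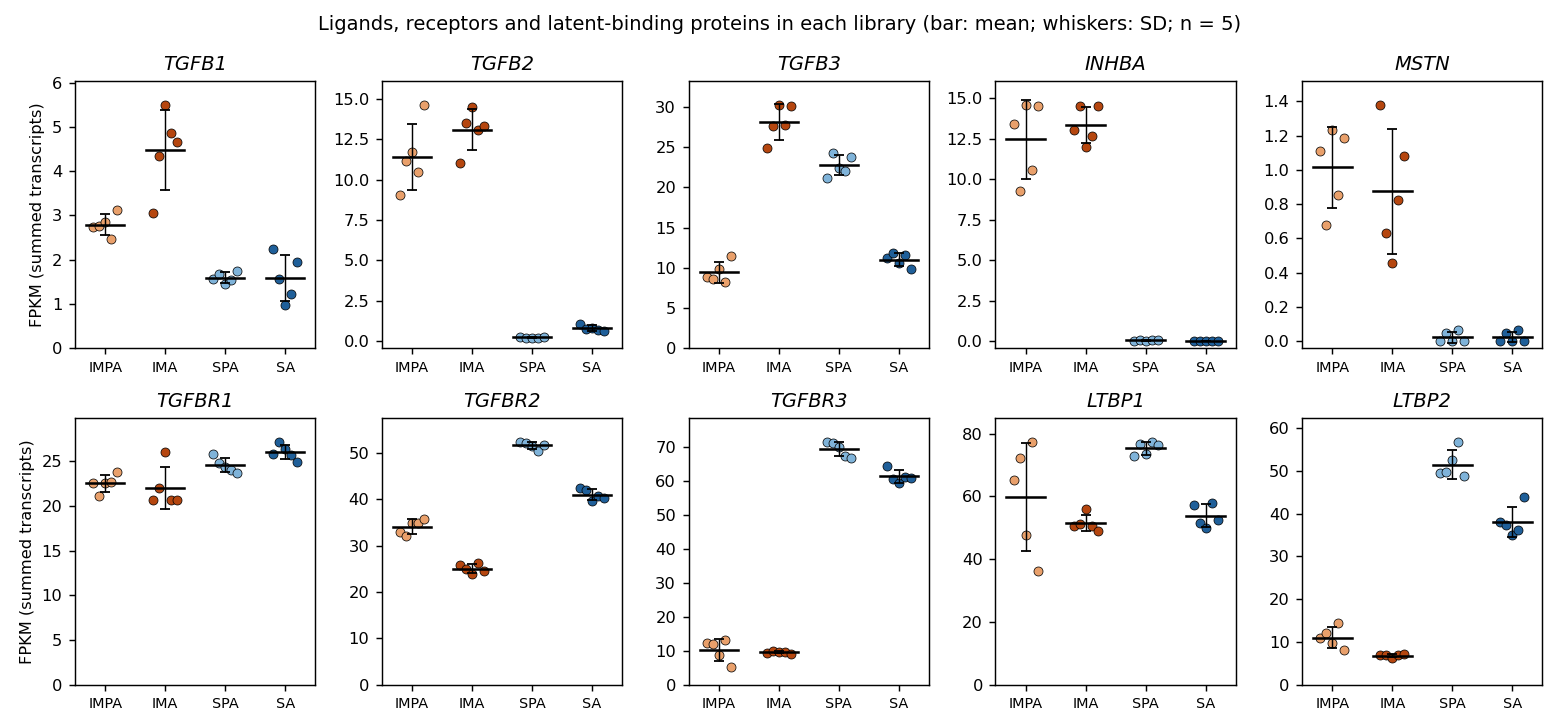
FPKM of the 10 genes in each of the 20 libraries, with the mean (bar) and SD (whiskers) of 5 libraries per group. TGFB2, INHBA and MSTN sit near 0 in both subcutaneous groups, TGFBR3 and LTBP2 are several times higher there, and TGFB3 moves in opposite directions in the 2 depots.

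On the log2(FPKM + 1) scale, TGFB3 had the largest stage change of the ligands tested, and it moved in opposite directions. It encodes the TGF-beta isoform best known from palate and lung development. The libraries of IMPA held 8.79, 8.62, 9.89, 8.25 and 11.5 FPKM, and those of IMA held 24.9, 27.6, 30.2, 27.7 and 30.2. In SPA the values were 21.2, 24.3, 22.4, 22.1 and 23.7, and in SA they were 11.2, 11.8, 10.6, 11.6 and 9.84. Every IMA library was above every IMPA library, and every SA library was below every SPA library. The mean rose to 2.99 times its level in the intramuscular cells, from 9.41 ± 1.31 to 28.1 ± 2.20 (SD, n = 5; log2 change 1.49, SE 0.08, adjusted p = 3.1e-08). In the subcutaneous cells the mean went from 22.7 ± 1.25 to 11.0 ± 0.796, and the level fell by 0.98 on the log2 scale (SE 0.05, adjusted p = 1.24e-08). The difference between these changes was 2.47 (SE 0.10, adjusted p = 2.78e-14). As a result the order of the depots turned over. TGFB3 was lower in IMPA than in SPA (log2 difference -1.20, adjusted p = 1.52e-08) and higher in IMA than in SA (1.28, adjusted p = 1.65e-10). In the order of the group means IMA was first, then SPA, then SA and IMPA, and only SA and IMPA overlapped. A single transcript carried the gene. The muscle marker sum also rose in the intramuscular cells, from 3524 to 11686 FPKM, and the proliferation marker sum rose in the subcutaneous cells, from 47.6 to 186, each without overlap. The stromal marker sum fell in the subcutaneous cells, from 10196 to 7600 FPKM, also without overlap. The part of these lists in the changes of TGFB3 was not tested.

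TGFB1, the most widely expressed isoform in many tissues, was the scarcest of the TGF-beta isoforms in the intramuscular cells. Its FPKM was 2.74, 2.76, 2.85, 2.46 and 3.12 in IMPA and 3.05, 4.34, 5.49, 4.87 and 4.67 in IMA. SPA libraries held 1.57, 1.68, 1.45, 1.54 and 1.75, and SA libraries held 2.23, 1.56, 0.964, 1.22 and 1.95. The induced intramuscular libraries were the highest, but IMA 1 lay within the range of IMPA, and the SA libraries spread on both sides of SPA. TGFB1 rose in the intramuscular cells from 2.79 ± 0.237 to 4.48 ± 0.902 (log2 change 0.52, SE 0.11, adjusted p = 0.00116). The subcutaneous means were 1.60 ± 0.116 and 1.59 ± 0.517, with a change of -0.03 (95% interval -0.28 to 0.22, adjusted p = 0.856). The changes differed by 0.55 (adjusted p = 0.00819). With the share of reads mapped as a covariate these calls were lost, at 1.09 for the intramuscular change and 0.97 for the difference. Both intramuscular groups were above the subcutaneous group of the same stage without overlap, by 0.54 before induction (adjusted p = 1.62e-06) and 1.09 after it (adjusted p = 8.56e-06). Of its 2 transcripts, XM_018061650.1 held 58.2% to 64.0% of the level in the group means and NM_001314142.1 the rest.

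TGFB2 was higher in the intramuscular cells. Its level was 9.05, 11.2, 11.7, 10.5 and 14.7 FPKM in IMPA and 11.1, 13.5, 14.5, 13.1 and 13.3 in IMA. It was 0.275, 0.163, 0.216, 0.208 and 0.237 in SPA and 1.08, 0.736, 0.833, 0.677 and 0.627 in SA. No intramuscular library came near a subcutaneous one, and the SA libraries, though low, were all above the SPA libraries. The depot difference was 3.33 on the log2 scale before induction (SE 0.09, adjusted p = 6.22e-12) and 2.98 after it (SE 0.08, adjusted p = 1.9e-13). In the subcutaneous cells TGFB2 rose from 0.220 ± 0.0412 to 0.791 ± 0.179 (log2 change 0.55, SE 0.06, adjusted p = 1.04e-05). The intramuscular means of 11.4 ± 2.07 and 13.1 ± 1.27 gave 0.19 (95% interval -0.03 to 0.42, adjusted p = 0.123), and without IMPA 5, the highest library of its group, the difference became 0.28 and was called. Without IMPA 1, the lowest, it became 0.12. A replicate block also called it, at the unchanged value of 0.19. The changes of the 2 depots differed by -0.35 (adjusted p = 0.0249). That call was lost without IMA 1 or without SA 1, each time with a value of -0.30. By the most abundant transcript it was lost at -0.24, and without IMPA 3 and IMPA 5 at -0.22. With the share of reads mapped as a covariate it was lost at 0.02.

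The transcripts of TGFB2 differed between the depots. In IMPA and IMA, 97.3% and 98.5% of its level came from XM_018060160.1. That transcript was listed at 0 in all 5 SPA libraries, in which XM_018060159.1 made up the whole level. In SA it was at 0.991, 0.736, 0.367, 0 and 0 FPKM, so the subcutaneous rise was shared between the transcripts differently from library to library. Taken alone, this transcript gave a log2 change of 0.45 in SA against SPA that was not called. At levels under 1 FPKM, the split of reads between transcripts is an estimate with little data behind it.

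INHBA encodes the subunit of activin A, and it too was found in the intramuscular cells. IMPA libraries held 13.4, 9.25, 14.6, 10.6 and 14.5 FPKM and IMA libraries 13.0, 14.5, 12.0, 12.7 and 14.5. INHBA was at or under 0.0927 FPKM in every subcutaneous library and listed at 0 in 1 SPA and 3 SA libraries, so no ratio is given. The depot difference on the log2 scale was 3.66 before and 3.82 after induction (adjusted p = 9.25e-12 and 5.27e-16). The stage change was 0.11 in the intramuscular cells (95% interval -0.14 to 0.35, adjusted p = 0.429) and -0.05 in the subcutaneous cells (-0.13 to 0.02, adjusted p = 0.224). The first ranged from 0.0138 without IMPA 2 to 0.165 without IMPA 3 and was not called in any of these fits. Of the 2 INHBA transcripts, XM_013963334.2 held 13.3% of the level in IMPA and 18.4% in IMA. In a fit over single transcripts, where 33.3% were called in IMA against IMPA, it rose by 0.39 (adjusted p = 0.0147). The more abundant NM_001285581.1 gave 0.03 there (adjusted p = 0.902). MSTN, which encodes myostatin, was at 1.11, 0.680, 1.24, 0.855 and 1.19 FPKM in IMPA and at 1.38, 0.630, 0.455, 0.824 and 1.08 in IMA. It was at or under 0.0635 FPKM in the subcutaneous libraries and listed at 0 in 3 SPA and 3 SA libraries. MSTN was not tested as planned because of its low mean. With no filter on low values, its depot differences of 0.97 and 0.85 were called and its stage changes of -0.12 and 0.00 were not.

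Higher levels of TGFB2, INHBA and MSTN in a depot went with the muscle markers, which were near 0 in the subcutaneous cells. From IMPA to IMA the muscle marker sum rose from 3524 to 11686 FPKM without overlap. The mean of TGFB2 then went from 11.4 to 13.1, of INHBA from 12.5 to 13.4 and of MSTN from 1.01 to 0.874, with overlap. The part of muscle cells in the depot differences of these genes was not tested. TGFB1, TGFB2, INHBA and MSTN were higher in each of the 10 intramuscular libraries than in any subcutaneous library, and TGFBR2, TGFBR3 and LTBP2 were lower in each. Of all genes tested, 31.2% were separated by depot in this way.

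**Figure D3:**
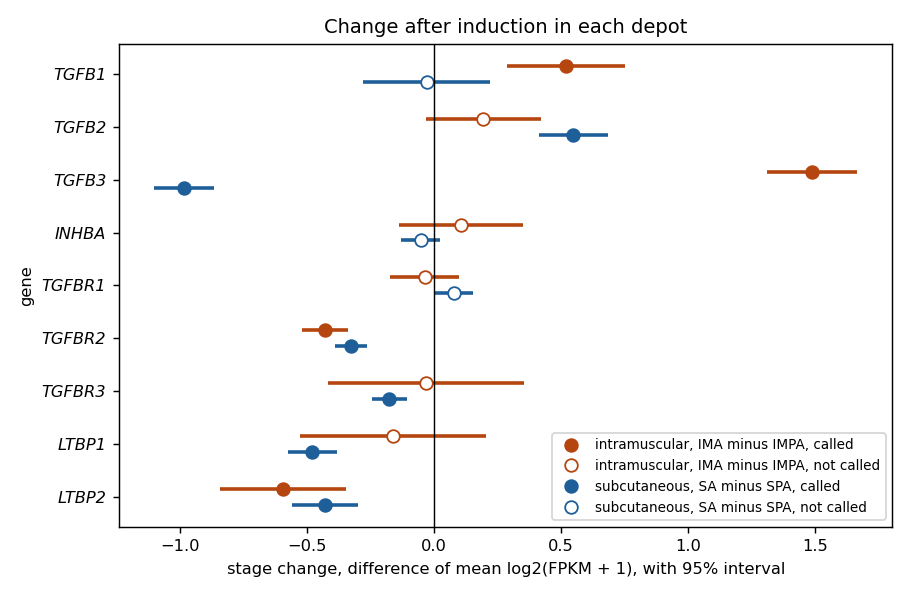
Difference of mean log2(FPKM + 1) after induction for the 9 tested genes, IMA minus IMPA and SA minus SPA, with 95% intervals from limma; filled points were called at an adjusted p under 0.05. TGFB3 lies at 1.49 and -0.98, and TGFBR2 and LTBP2 lie below 0 in both depots.

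TGFBR2, the type II receptor that binds TGF-beta first, fell in both depots. The IMPA libraries held 32.8, 32.1, 34.9, 34.8 and 35.8 FPKM and the IMA libraries 25.8, 24.9, 23.8, 26.2 and 24.4. The SPA libraries held 52.29, 52.2, 51.5, 50.4 and 51.6 and the SA libraries 42.4, 42.0, 39.6, 40.6 and 40.3. The 4 groups did not overlap at any point of the order SPA, SA, IMPA, IMA. TGFBR2 fell by 0.43 on the log2 scale in the intramuscular cells (SE 0.04, adjusted p = 4.07e-06) and fell by 0.33 in the subcutaneous cells (SE 0.03, adjusted p = 1.36e-06). The difference between the changes was -0.10 (95% interval -0.21 to -0.00, adjusted p = 0.0822), and it was called at -0.12 without IMPA 2. The receptor was lower in the intramuscular cells at both stages, by -0.59 before and -0.69 after induction (adjusted p = 9.54e-09 and 1.44e-09).

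TGFBR3 encodes betaglycan, the co-receptor that presents TGF-beta 2 to the type II receptor and binds inhibin. Of the 3 member receptors it separated the depots most. Levels were 12.2, 11.9, 8.74, 13.3 and 5.38 FPKM in IMPA and 9.48, 9.99, 9.74, 9.79 and 9.13 in IMA, against 71.4, 71.0, 70.0, 67.4 and 66.7 in SPA and 64.3, 60.5, 59.4, 61.1 and 60.9 in SA. The means were 6.73 times higher in SPA than in IMPA and 6.36 times higher in SA than in IMA (log2 differences of intramuscular minus subcutaneous cells -2.70 and -2.55, adjusted p = 2.32e-08 and 3.76e-16). Thus the depot with the least TGFB2 had the most TGFBR3. In the subcutaneous cells TGFBR3 fell by 0.18 (SE 0.03, adjusted p = 0.000618), and all SA libraries were below all SPA libraries. That call was lost, at the same value, when all 4 groups were fitted together, and it was lost at -0.14 with the share of reads mapped as a covariate. In the intramuscular cells the change was -0.03 (95% interval -0.42 to 0.36, adjusted p = 0.894). The interval was wide because the IMPA libraries ranged from 5.38 to 13.3.

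TGFBR1, the type I receptor kinase, was nearly level. Its means were 22.5 ± 0.970 in IMPA, 22.0 ± 2.31 in IMA, 24.6 ± 0.807 in SPA and 26.0 ± 0.807 in SA, and each neighbour in this order overlapped the next. IMA 3, at 26.0 FPKM, stood apart from the other IMA libraries at 20.7 to 22.0. The stage changes were -0.04 and 0.08 (adjusted p = 0.63 and 0.0752). The subcutaneous one was called without SPA 1 at 0.10, without SA 5 at 0.09, without both at 0.11 and with the share of reads mapped as a covariate at 0.19. The stage changes differed by -0.12 (adjusted p = 0.182), which became -0.17 and was called without IMA 3. TGFBR1 was lower in the intramuscular cells by -0.12 before and -0.24 after induction (adjusted p = 0.0128 and 0.00291), with overlapping groups. Taken by its most abundant transcript, XM_018052234.1, the first of these calls was lost.

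LTBP1 encodes the latent TGF-beta binding protein that carries most of the secreted TGF-beta complex in many cell types. It was the most abundant member in IMPA, IMA and SPA, and in SA it came after TGFBR3. IMPA libraries held 65.3, 72.4, 47.6, 77.3 and 36.3 FPKM and IMA libraries 50.5, 51.3, 55.9, 50.5 and 49.1. SPA libraries held 72.8, 76.6, 73.5, 77.2 and 76.5 and SA libraries 57.3, 51.4, 49.9, 58.00 and 52.5. IMPA spread over the levels of all other groups, while every SA library was below every SPA library. In the subcutaneous cells LTBP1 fell by 0.48 (SE 0.04, adjusted p = 1.74e-06). In the intramuscular cells the change was -0.16 (95% interval -0.53 to 0.21, adjusted p = 0.429), and it ranged from -0.32, called, without IMPA 5 to -0.056 without IMPA 4. The difference between the changes was 0.32 (adjusted p = 0.156), ranging from 0.155 without IMPA 5 to 0.42, called, without IMPA 4. IMPA against SPA gave -0.38 (adjusted p = 0.0558) and IMA against SA -0.06 (adjusted p = 0.288). The first of these lay close to the threshold and ranged from -0.49 to -0.22 with 1 library left out, the smallest without IMPA 5. It was called at -0.46 without IMPA 2, at -0.49 without IMPA 4, at -0.43 with upper-quartile scaling and at -0.41 with the same mRNA sum per library. It was also called, at the same value, with all 4 groups in 1 fit and with a replicate block. It turned to 1.60 and was called with the share of reads mapped as a covariate, and to 0.35, not called, by the most abundant transcript.

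**Figure D4:**
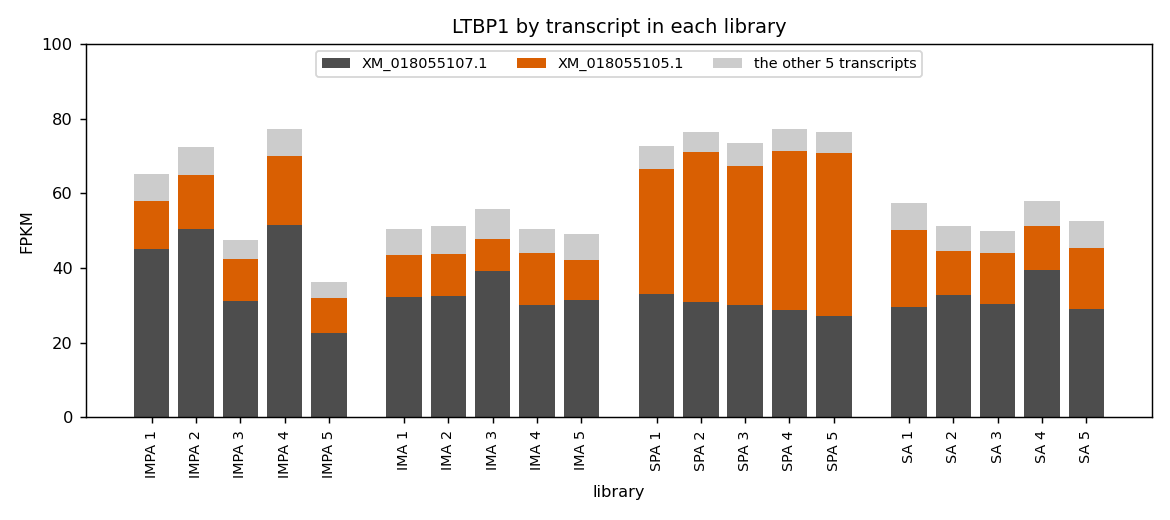
FPKM of LTBP1 in each library, stacked by transcript, with the other 5 of its 7 transcripts in grey. XM_018055105.1 is above 33 in every SPA library and below 21 in all other libraries, while XM_018055107.1 runs from 27.2 to 39.5 in the subcutaneous libraries.

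The subcutaneous fall of LTBP1 lay in 1 of its transcripts. XM_018055105.1 was at 33.5, 40.3, 37.3, 42.5 and 43.6 FPKM in SPA and at 20.7, 11.8, 13.8, 11.9 and 16.2 in SA. XM_018055107.1 was at 33.0, 30.9, 30.0, 28.8 and 27.2 in SPA and at 29.6, 32.7, 30.3, 39.5 and 29.2 in SA. The groups were far apart for the first and overlapped for the second. In a fit over single transcripts, where 25.9% of all transcripts tested were called in SA against SPA, XM_018055105.1 fell by 1.37 on the log2 scale (SE 0.15, adjusted p = 7.27e-05). XM_018055107.1 gave 0.10 (SE 0.08, adjusted p = 0.461). The share of XM_018055105.1 in the gene was 52.4% in SPA, 27.6% in SA, 22.1% in IMPA and 21.6% in IMA. These shares are the assembler's estimates, since fragments from sequence that transcripts share must be divided between them.

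LTBP2, a matrix protein of the same family that binds fibrillin but not TGF-beta itself, was higher in the subcutaneous cells. Its level was 10.8, 12.2, 9.69, 14.4 and 8.06 FPKM in IMPA and 6.93, 6.97, 6.27, 6.88 and 7.17 in IMA. It was 49.5, 49.7, 52.6, 56.71 and 48.7 in SPA and 37.9, 37.2, 35.0, 36.1 and 43.9 in SA. The 4 groups did not overlap, in the order SPA, SA, IMPA, IMA that TGFBR2 also had. LTBP2 fell by 0.60 in the intramuscular cells (SE 0.11, adjusted p = 0.000738) and fell by 0.43 in the subcutaneous cells (SE 0.06, adjusted p = 7.47e-05). The 2 changes differed by -0.17 (95% interval -0.45 to 0.12, adjusted p = 0.31), ranging from -0.26 without IMPA 5 to -0.0723 without IMPA 4. The depot differences were -2.14 and -2.31 (adjusted p = 2.98e-09 and 1.17e-13). XM_018053972.1 held 69.3% to 73.5% of its level in every group. The stromal marker sum, like TGFBR2, TGFBR3 and LTBP2, was lower in SA than in SPA and lower in the intramuscular cells at both stages, each time without overlap. Between IMPA and IMA the stromal sum overlapped, at 2475 and 2547 FPKM, as TGFBR3 did, while TGFBR2 and LTBP2 fell without overlap. The part of the stromal markers in these differences was not tested.

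For TGFBR3, LTBP1 and LTBP2 the IMPA libraries differed among themselves more than those of the other groups. The coefficient of variation in IMPA was 31.3% for TGFBR3, 28.9% for LTBP1 and 21.9% for LTBP2, compared with a median of 6.93% over all genes tested, which was 7.27% in IMA, 6.27% in SPA and 7.84% in SA. IMPA 3 and IMPA 5 had the lowest values of all 3 genes and the highest values of TGFB1, TGFB2, TGFB3, INHBA, MSTN and TGFBR2. TGFBR1 was neither lowest nor highest in both. Of the 10 stromal markers, PDGFRA, PDGFRB, DCN, LUM and COL1A1 were also lowest in these libraries, while THY1 and NT5E were highest and 3 were neither. Of the 12 muscle markers, MYOG, DES, MYLPF and TNNC1 were highest there, PAX7 and MYF5 were lowest and 6 were neither. The stromal sum was 2335 and 2334 FPKM in IMPA 3 and IMPA 5, and 2435 to 2736 in the other IMPA libraries. The muscle sum was 3741 and 3749 FPKM in IMPA 3 and IMPA 5, and 3267 to 3572 in the others. Going by the quality tables of the study, IMPA 3 and IMPA 5 also had the highest share of reads mapped and the highest GC content. The part of these in the differences within IMPA was not tested.

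The share of reads mapped to the genome was higher in every IMPA library than in any other library, going by the alignment summary of the study, so this share and the IMPA group can hardly be told apart. With it as a covariate, calls in IMA against IMPA went from 6865 to 775 of all genes and from 4 to 2 of the members. TGFB1 at 1.09 and TGFBR2 at -0.36 were then not called, while TGFB3 and LTBP2 were. In IMPA against SPA, TGFB1 at 0.31, TGFBR3 at -0.99 and LTBP2 at -0.92 were not called, and LTBP1 turned to 1.60 and was called. For the difference between depots TGFB1 at 0.97 and TGFB2 at 0.02 were not called, and INHBA at 0.71 and LTBP2 at -0.88 were.

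Other genes of the pathway were taken from 7 lists with 91 genes in all besides the members, of which 79 were tested. In IMA against IMPA 29 rose and 30 fell, where 19.9% of all genes tested rose and 40.2% fell, with a median change of -0.03 beside -0.09 for all genes. In SA against SPA 24 rose and 29 fell, beside 26.1% and 26.0% of all genes, with medians of -0.06 and -0.01. The changes of the depots differed for 45 of the 79, beside 55.3% of all genes. These shares of all genes are also the background for the counts of single lists. Of the 79 genes, 13 rose in both depots, 15 fell in both, 8 rose in the intramuscular and fell in the subcutaneous cells, as TGFB3 did, and 6 did the reverse. The same 4 classes held 5.96%, 11.8%, 4.11% and 9.66% of all 11423 genes tested in both comparisons.

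Of 3 other ligands tested among 7, GDF15, a stress-induced cytokine, rose in both depots, from 6.08 to 10.7 FPKM in the intramuscular cells (log2 change 0.72, adjusted p = 6.4e-06) and from 4.76 to 9.29 in the subcutaneous cells (0.83, adjusted p = 5.68e-07). INHBE, which encodes an activin subunit best known from liver, rose in the subcutaneous cells from 2.17 to 5.99 (1.14, adjusted p = 8.86e-09). GDF11, the close relative of myostatin, fell by 0.31 and fell by 0.66 in the 2 depots. Among 6 other receptors tested of 8, 2 rose in the intramuscular cells and 4 fell in the subcutaneous cells. Both that rose were also among those that fell. The activin type I receptor ACVR1B had changes of 0.17 and -0.57 (adjusted p = 0.034 and 1.08e-05). ACVRL1, a type I receptor known from endothelium, went from 0.447 to 1.13 FPKM in the intramuscular cells (0.56, adjusted p = 1.86e-05) and from 11.7 to 8.84 in the subcutaneous cells (-0.37, adjusted p = 0.000208). ENG and ACVR1 fell by 0.50 and fell by 0.39 in the subcutaneous cells.

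Of 18 genes of latency, storage and activation tested, 5 rose and 7 fell in each depot. ITGB6, the beta chain of an integrin that activates latent TGF-beta, rose from 21.3 ± 1.98 to 37.6 ± 3.23 FPKM in the intramuscular cells (log2 change 0.79, adjusted p = 1.77e-06) and was under 0.03 FPKM in both subcutaneous means. LTBP3, another latent-binding protein, fell by 0.76 in the intramuscular cells, and thrombospondin 1 (THBS1), an activator, fell by 0.75. In the subcutaneous cells fibulin 5 (FBLN5) rose by 1.06 and the integrin chain ITGB3 by 0.67, while EMILIN1, which binds the TGF-beta precursor, fell by 0.66. All 9 genes tested of the antagonist list changed in the intramuscular cells, 3 up and 6 down, where 60.1% of all genes were called. Of these, 7 changed in the subcutaneous cells, 2 up and 5 down, beside 52.1% of all genes. The list holds PMEPA1, which binds SMADs inside the cell and was 1 of the 3 that rose, so it is not extracellular throughout. Follistatin (FST), which traps activin and myostatin, moved against TGFB3. It fell by 0.60 in the intramuscular cells, from 14.2 to 8.86 FPKM, and rose by 1.16 in the subcutaneous cells, from 5.68 to 13.9 (adjusted p = 0.0016 and 1.54e-08). Its relative FSTL3 rose by 1.06 in the intramuscular cells, from 6.32 to 14.2. Asporin (ASPN) fell by 0.79 and fell by 0.78, and WFIKKN1, which binds myostatin, fell by 0.54 in the subcutaneous cells.

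Inside the cell, none of 7 transducers rose, 4 fell in the intramuscular cells and 3 in the subcutaneous cells. SMAD3 fell by 0.62 in the subcutaneous cells, from 30.4 ± 0.840 to 19.5 ± 1.11 FPKM (adjusted p = 9.34e-08). ZFYVE9, which brings SMADs to the receptor, fell by 0.23 and fell by 0.34, and TGFBRAP1 fell by 0.46 and fell by 0.27. TAB1 fell by 0.25 in the intramuscular cells. Of 12 inhibitors tested, 4 rose and 5 fell in the intramuscular cells and 5 rose and 2 fell in the subcutaneous cells. SKIL rose in both depots, by 0.61 and 0.30. SMAD7, the inhibitory SMAD, and the ligase SMURF2, which SMAD7 brings to the receptor, rose in the intramuscular cells by 0.49 and 0.28 (adjusted p = 0.000119 and 4.09e-05). SKI and SMURF1 fell by 0.45 and fell by 0.23 in the subcutaneous cells.

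Of 24 textbook transcriptional targets tested, 14 rose and 7 fell in IMA against IMPA, with a median change of 0.29, and 10 rose and 7 fell in SA against SPA, with a median of 0.07. All genes tested had medians of -0.09 and -0.01. Fibronectin (FN1) rose from 271 ± 43.9 to 781 ± 64.5 FPKM in the intramuscular cells (log2 change 1.54, adjusted p = 1.18e-07). The cell cycle inhibitor CDKN1A rose by 1.17 and tenascin C (TNC) by 1.15 in the same comparison. In the subcutaneous cells elastin (ELN) rose by 1.32 and TNC by 0.87. These genes have many other regulators, and their relation to the ligands was not tested. ACTA2, TAGLN and CNN1 of this list are also smooth muscle markers, and COL1A1 is also a stromal marker.

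**Figure D5:**
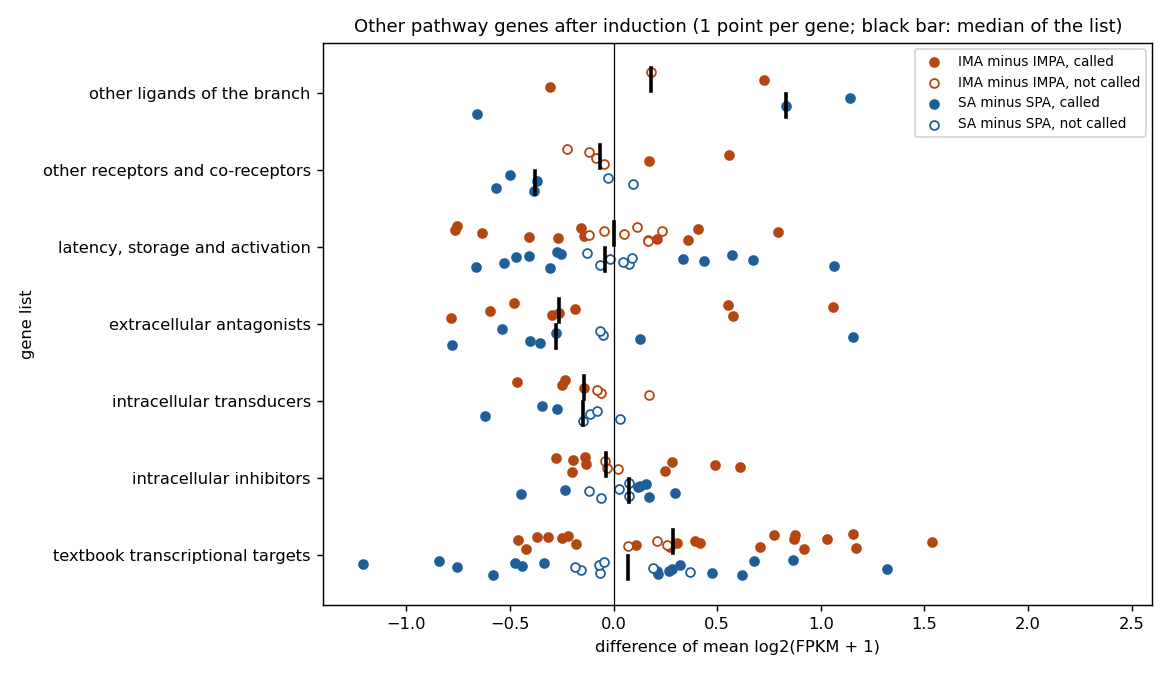
Difference of mean log2(FPKM + 1) after induction for the tested genes of 7 pathway lists, 1 point per gene, IMA minus IMPA above and SA minus SPA below in each row; filled points were called and the black bar is the median of the list. The median of the textbook targets lies at 0.29 in the intramuscular and 0.07 in the subcutaneous cells.

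For each tested member whose group means spanned at least 1 on the log2 scale, the 3 genes with the closest profile over the 20 libraries are named, by the root mean square difference after centring. The profile of TGFBR2 was nearest to SUMF1 (0.05), TMEM181 (0.09) and NDNF (0.09). SEMA3G (0.13), DMPK (0.18) and SKP2 (0.20) were nearest to TGFB2, and EYA4 (0.14), CAP2 (0.17) and LOC102176024 (0.18) to INHBA. DMPK and CAP2 are known from muscle, and EYA4 from muscle and ear. TGFBR3 lay nearest to IL1RAP (0.14), PLA2G4A (0.20) and AKAP12 (0.21), and LTBP2 to EBF1 (0.18), SNAI2 (0.20) and SDK1 (0.20). EBF1 is a transcription factor of the fat lineage. TGFB1 was closest to CCDC80 (0.15), PLEKHA2 (0.18) and S100A16 (0.18). TGFB3 had the least close neighbours, S100A14 (0.27), ACSL1 (0.30) and FSTL3 (0.31), the last of which is in the antagonist list. TGFBR1 and LTBP1 spanned less than 1.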

How the data were processed

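The 20 libraries were strand-specific RNA-seq. Per the labels and the methods of the study, the authors aligned reads to the goat genome with HISAT2 2.0.4 and estimated transcript levels with StringTie 1.3.1. The authors deposited FPKM per transcript, without read counts. The study lists reads per library, but the fragments behind single values were not estimated from them. The FPKM sum per library was 527426 to 596669 over mRNA and lncRNA transcripts together, and 373889 to 413880 over mRNA alone. The most abundant transcript, on average the lncRNA LNC_010228, held 19.95% to 29.07% of the joint sum in each library. That share was 26.5% to 28.0% in IMPA, 26.9% in IMA 1 and 19.95% to 22.4% in IMA 2 to IMA 5. FPKM of the mRNA table was summed per symbol and tested with limma 3.58.1 in R 4.3.3, tables and figures being made with Python 3.11.15, pandas 2.3.3 and matplotlib 3.10.9 (lmFit, and eBayes with a trend) on log2(FPKM + 1), for genes averaging 1 FPKM or more, with Benjamini-Hochberg adjustment over all genes tested. Each pair comparison used its own 10 libraries, the difference between depots all 20. The code was tested on simulated data.

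The members and gene lists were chosen with earlier results of these data known. Named besides the members are, per list and stage comparison, up to 3 of the called genes with the largest absolute change, and the 3 nearest profiles. Transcripts with at least 10% of a gene in any group mean were eligible to be named, and only some of them are. Of 91 listed pathway genes, 89 were in the table. The stromal and muscle genes given for single IMPA libraries were sorted after their values were seen. Apart from the FPKM sum per library and the share of its most abundant transcript, the lncRNA tables enter only the closing part. No libraries were identical. Alternatives were other filters, pseudocounts, scalings and fits, single transcripts, and libraries left out.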

Additional observations from a re-analysis of the deposited data

Results flagged for a closer look

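The stage change differed between the depots for TGFB3, by 2.47 on the log2 scale of intramuscular minus subcutaneous change, for TGFB1 by 0.55 and for TGFB2 by -0.35, each tested as the interaction of stage and depot with limma (adjusted p = 2.78e-14, 0.00819 and 0.0249). For TGFB3 every library took part in the opposite movement, since all 5 IMA libraries were above all 5 IMPA libraries and all 5 SA libraries were below all 5 SPA libraries. For TGFB1 the stages overlapped in both depots. For TGFB2 they overlapped in the intramuscular cells, and all subcutaneous values were at or under 1.08 FPKM. With the share of reads mapped as a covariate, the calls of TGFB1 and TGFB2 were lost, at 0.97 and 0.02. The TGFB2 call was also lost without IMA 1, without SA 1 and by its most abundant transcript.

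Among 40 combinations of a member and a group, 1 held a library far from the other 4. TGFBR1 in IMA 3 was 26.0 FPKM, while the other IMA libraries were at 20.7 to 22.0, and the gap made up 0.75 of the range, above Dixon's limit of 0.71 for 5 samples. Chance alone would give about 1 in 20 such combinations.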

How the results depend on the processing

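Left-out libraries moved the number of members called between 4 and 6 in IMA against IMPA, 6 and 7 in SA against SPA, 2 and 4 for the difference between depots, 8 and 9 in IMPA against SPA, and gave 8 each time in IMA against SA. All genes called ranged over 6361 to 6874, 5458 to 5885, 6054 to 6381, 8334 to 8536 and 7964 to 8187, and other pathway genes over 53 to 60, 48 to 54, 42 to 49, 66 to 69 and 62 to 65. With the share of reads mapped as a covariate, members called went from 4 to 2 in IMA against IMPA. All genes called went to 775, 3824, 2122 and 2418 in the first 4 comparisons, and other pathway genes to 16, 21 and 35 in IMA against IMPA, the difference between depots and IMPA against SPA. The cause was not tested. Without IMPA 3 and IMPA 5, 7 members were called in IMA against IMPA and 5 for the difference between depots. These libraries were chosen after seeing the data, for their values of the same genes, so these counts follow in part from the choice and support no result.

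Directions turned as follows. Under upper-quartile scaling TGFBR1 and TGFBR3 gave 0.001 and 0.0047 in IMA against IMPA. With the mapped share, TGFBR1 gave 0.40 there, LTBP1 1.60 in IMPA against SPA, and TGFB2, TGFBR1, TGFBR3 and LTBP1 gave 0.0192, 0.26, -0.73 and -0.64 for the difference between depots. By its most abundant transcript, TGFB1 gave 0.0446 and LTBP1 0.0973 in SA against SPA, LTBP1 0.35 in IMPA against SPA and 0.0403 in IMA against SA, and TGFBR3 and LTBP1 -0.0279 and -0.31 for the difference between depots. For LTBP1 that transcript is the one that did not fall. Without IMPA 3 and IMPA 5, TGFBR3 gave -0.16 for that difference. With 1 library left out, TGFBR3 ran from -0.2224 to 0.0683 in IMA against IMPA, being 0.0394, 0.0309 and 0.0683 without IMPA 1, 2 and 4. It ran from -0.0473, without IMPA 5, to 0.2434 for the difference between depots. TGFB1 ran from -0.1142 to 0.0653 in SA against SPA, being 0.0653 and 0.0205 without SA 3 and SA 4. Of 540 member values with 1 library left out, 523 kept direction and call.

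The labels do not say whether same-numbered libraries came from the same goat, and low correlations between them cannot decide it. Correlations of same-numbered libraries ran from -0.242 to 0.122, and 6 of 20 had their best match in the same number. With a replicate block, members called were 5, 6, 3, 9 and 8, and all genes 6836, 5624, 6304, 8530 and 8059. The block added TGFB2 in IMA against IMPA at 0.19 and LTBP1 in IMPA against SPA at -0.38. The deposited tables hold no read counts, and the precision of levels under 1 FPKM was not estimated.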

Other observations

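A set of lncRNAs was tied to TGFB2 in the study through correlation across these same libraries, so the set is not independent of the levels given here. In the lncRNA tables all 12 of its transcripts separated the 10 intramuscular from the 10 subcutaneous libraries without overlap, 6 of them higher in the intramuscular and 6 higher in the subcutaneous cells. XR_001917557.1 was at 23.8 ± 1.08 FPKM in IMPA and 19.4 ± 1.13 in IMA, and at or under 0.07 FPKM in the subcutaneous libraries. XR_001917649.1 showed the reverse, listed at 0 in the intramuscular libraries and at 2.53 ± 0.136 in SPA and 3.03 ± 0.453 in SA. LNC_010010 was at 21.0 and 21.3 FPKM in IMPA and IMA and at 2.45 and 3.06 in SPA and SA. TGFB2 itself was separated by depot, so the separation of a set correlated with it follows in large part from the choice. Of the mRNA genes tested, 31.2% were separated by depot in the same way, which is no yardstick for such a set.

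The 8 pathway genes that rose in the intramuscular and fell in the subcutaneous cells, as TGFB3 did, were ACVR1B, ACVRL1, BGN, BHLHE40, EMILIN1, FSTL3, JUNB and TGFBI, listed here after their values were seen. TGFBI, a matrix protein named for its induction by TGF-beta, went from 149 to 256 FPKM in the intramuscular cells and from 780 to 436 in the subcutaneous cells (log2 changes 0.77 and -0.84, adjusted p = 2.98e-09 and 6.35e-08). Its changes differed by 1.61 between the depots (adjusted p = 1.76e-14). TGFBI is a separate gene from TGFB1, whose stage change in the subcutaneous cells was not called. A transcript that the study names as the TGFB1 product is listed under TGFBI in the deposited table, so its statements on that transcript concern a different gene symbol from the TGFB1 reported here.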
